A study of Mus musculus with 12 samples.

Results

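Nucleoporins are the proteins that build the nuclear pore complex, and their mRNAs were measured here in the cortex of WT and Gde2KO mice. A gene was a member if its symbol was Nup followed by a number, or if it was Ranbp2, Tpr, Pom121, Ndc1, Aaas, Seh1l, Sec13 or Rae1. This gave 29 of the 36047 genes in the deposited table, with 195 annotated transcripts of which 79 are listed as protein coding. The genes lie on 14 chromosomes. RNA sequencing was done on polyA RNA from brain cortex in 4 groups of 3 libraries: WT at 4 months, Gde2KO at 4 months, WT at 19 months and Gde2KO at 19 months. Gde2KO mice lack GDE2, the product of Gdpd5, a membrane enzyme that cleaves the lipid anchor of certain surface proteins. The part of the gene that is deleted is not given in the sources used here. The comparison asks whether the mRNAs of pore components differ between the genotypes, since the study stained Nup98 and followed transport between nucleus and cytoplasm.

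The pore is a ring-shaped channel across the nuclear envelope through which mRNAs leave the nucleus and proteins enter it. Its scaffold is made of the Y complex on both faces and an inner ring between them. Transmembrane members anchor the scaffold, central channel members with phenylalanine-glycine repeats form the transport barrier, and filaments on the cytoplasmic side and a basket on the nuclear side dock cargo. Scaffold nucleoporins are among the longest-lived proteins of neurons, so mRNA and protein levels need not move together, and only mRNA was measured here.

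Values are called normalized counts when they are estimated read counts of all transcripts of a gene divided by a size factor for each library, and TPM when they are the usual length-scaled transcript abundances, likewise divided by a size factor. Depth was 46434259 to 59728495 estimated reads per library at 4 months and 3707928 to 44604732 at 19 months. Library A of the WT and library A of the Gde2KO mice at 19 months were the shallow ones, and 1 read there is worth 4.66 and 8.29 normalized counts. At 4 months Gde2KO replicate 3 stood apart, with 8.84% of its total from mitochondrial genes against 5.10% to 5.97% in the other 5 libraries. All markers of cortical neurons and of their deep layers were above 0 in every library. So were those of striatum and hippocampus, and presence alone does not tell regions apart. At 4 months 4 endothelial markers summed to 3647 to 4654 normalized counts in WT and 4761 to 5266 in Gde2KO, without overlap. Sums for the other cell types and regions overlapped at that age. The summed level of 5 striatal markers ran from 2261 to 31377 normalized counts in WT and from 16591 to 42458 in Gde2KO at 4 months, and that of 7 hippocampal markers from 9803 to 35717 and from 9498 to 11761. All genes together were also shifted at 4 months, with a median log2 fold change of 0.11 for Gde2KO against WT, and this median was 0.01 after rescaling the libraries by median ratios. Bulk tissue cannot tell fewer cells of a type from less RNA per cell. The study describes the 19-month libraries as coming from separate animals. The labels do not say so of the 4-month libraries, and p-values measure only the spread between the libraries at hand.

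Gdpd5, the targeted gene (chr7:99381414-99461877, GRCm38), was measured at 684, 702 and 1199 normalized counts in WT and 417, 585 and 403 in Gde2KO at 4 months. At 19 months it stood at 1065, 1129 and 952 in WT and 441, 456 and 560.1 in Gde2KO. Every Gde2KO library was below every WT library of its age. The log2 fold change was -0.85 (SE 0.25, adjusted p = 0.463, limma) at 4 months, and -1.11 (SE 0.12, adjusted p = 0.0111) at 19 months.

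Nucleoporin mRNAs were present at very different levels in cortex. Sec13, a Y complex subunit that also coats vesicles leaving the endoplasmic reticulum, had the highest mean over the 12 libraries at 57.5 TPM, with a range of 48.4 to 79.9. Rae1, an mRNA export factor that binds Nup98, followed at 51.3 TPM, and Nup88 of the cytoplasmic side at 43.1 TPM. The lowest were Nup43 of the Y complex at 3.39 TPM, Nup62cl at 0.57 TPM and Nup210l at 0.20 TPM. Nup62cl and Nup210l are relatives of Nup62 and Nup210. In all, 22 members had a mean of 10 TPM or more, 4 lay between 5 and 10, and 3 were below 5. Of the 28 pairs of neighbours in this order, 27 had ranges over the 12 libraries that overlapped, so the order of close members is not resolved. Subunits of 1 assembly did not share a level: within the Y complex the means ran from 3.39 TPM for Nup43 to 57.5 TPM for Sec13.

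**Figure D1:**
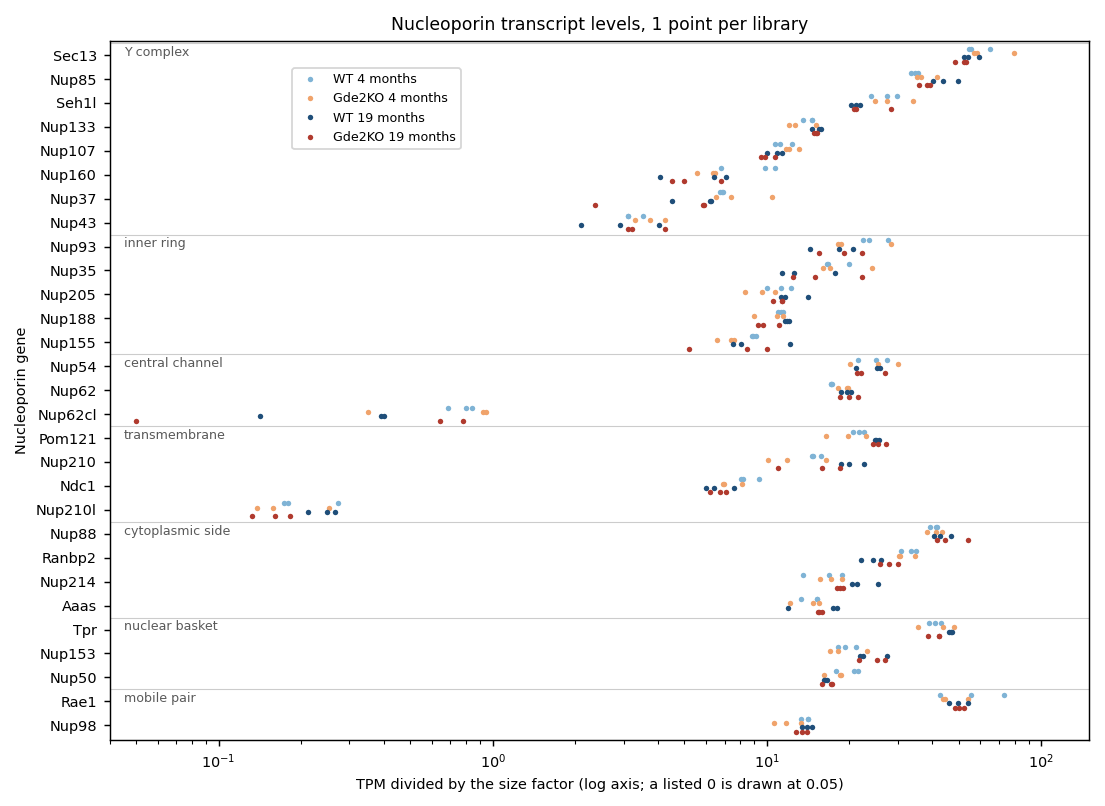
TPM of each nucleoporin (log axis) in the 12 libraries, coloured by group and ordered within each subcomplex by the mean. Most members have means above 10 TPM, and Nup62cl and Nup210l lie below 1 TPM in every library.

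All 29 members passed the filter on low values. The genes encoding Nup58 and Nup42 are filed under the older symbols Nupl1 and Nupl2, so the rule did not take them. Nupl2, a protein of the cytoplasmic side, was measured at 182 to 350.0 normalized counts. Nupl1, a central channel protein, is represented by 1 transcript model, which GENCODE lists as a target of nonsense-mediated decay, and was measured at 3.86 to 50.1. Exonic bases are shared with another gene by 9 members, and only for Pom121 is the share above 10%, with the antisense gene Nsun5 over 11.9% of its exonic bases. Reads there cannot be assigned to a strand from the sources used here.

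At 4 months no nucleoporin was called between Gde2KO and WT. A call required a p under 0.1 after Benjamini-Hochberg adjustment over all genes tested and a change of more than 0.5 in natural-log units in either direction (0.721 in log2 units). limma called 0 of 29 members, and 0.126% of all 19035 genes tested. The count over all genes was 24 and depended on single libraries, being 1510 without WT replicate 3 and 5 without Gde2KO replicate 3, while that of the members stayed at 0. At an unadjusted p under 0.05 there were 0 members, and 10.6% of all genes. Of the members, 15 were above 0 and 14 below, while 63.2% of all genes were above 0. The median log2 fold change was 0.01 for the members and 0.11 for all genes, and after rescaling by median ratios it was -0.09 and 0.01. Nucleoporins thus lay below the middle of all genes under both scalings, a difference for which no test was run. The 95% intervals of 24 of the 29 members lay wholly inside the fold used for calls, so a change of that size is outside those intervals. The exceptions were Nup37, Nup43, Nup35, Nup62cl and Nup210l, whose intervals reached beyond that fold.

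Groups did not overlap at 4 months for 2 members, both higher in Gde2KO, against 11.1% of all genes in that direction and 4.26% in the other. After rescaling by median ratios, and also on gene-level TPM, 1 member was higher and 2 were lower without overlap. Without Gde2KO replicate 2 there were 8 higher and 3 lower, where groups of fewer libraries separate more easily. Shares over all genes are not given for these other settings, so their counts cannot be set against the shares above. Nup62, the repeat-bearing core of the central channel (chr7:44816088-44830812), was measured at 766, 752 and 807 normalized counts in WT and 949, 843 and 979.5 in Gde2KO. This is a log2 fold change of 0.25 (SE 0.13, adjusted p = 0.476, limma), and of 0.15 after rescaling by median ratios. Nup37, a small Y complex subunit (chr10:88146992-88178390), was measured at 124, 115 and 121 normalized counts in WT and 127, 125 and 199 in Gde2KO. The high value was that of Gde2KO replicate 3, and the other knockout libraries were just above the highest WT library. The log2 fold change of 0.29 (SE 0.23, adjusted p = 0.558, limma) was 0.07 without that replicate (adjusted p = 0.937; 0.329 to 0.851 over the other libraries left out in turn).

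Gde2KO replicate 3 also set the spread of other members. It had the highest of the 6 libraries' values for 12 of 29 members, among them Nup35, Sec13, Seh1l and Nup85, and the lowest for 5, among them Nup98, Tpr and Nup214. How often it was highest or lowest over all genes is not given, so these counts cannot be read as particular to nucleoporins. Nup35, an inner ring protein, was measured at 396.417, 364 and 632 normalized counts in Gde2KO against 374, 385 and 374 in WT. Its log2 fold change of 0.25 (SE 0.22) therefore rests on 1 library. The same library had the largest mitochondrial share. Its total was also the largest at 4 months, 41229086 normalized counts against 31917431 to 35949224 in the other libraries of that age. Nucleoporins made up 0.0805% of its total, against 0.0901% to 0.102% in those libraries. The part of these features in its values was not tested. Without WT replicates 1 and 2, which had the high hippocampal and low striatal markers, 0 members were called.

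No subcomplex held a called member at 4 months. In the Y complex 7 of 8 were above 0, against 63.2% of all genes, with a median log2 fold change of 0.16 against 0.11 for all genes and a range from -0.03 for Nup160 to 0.29 for Nup37. Gde2KO replicate 3, whose total was the largest at 4 months, was the highest library for 6 of these 8, and without it the median was 0.04. The 3 central channel members were above 0, from 0.12 for Nup54 to 0.25 for Nup62. All 4 transmembrane members were below 0, from -0.14 for Nup210l to -0.08 for Ndc1, as were 4 of 5 inner ring members. The cytoplasmic side ran from -0.09 for Nup214 to 0.04 for Nup88, and the nuclear basket from -0.11 for Tpr to 0.03 for Nup153. None of these values reached an unadjusted p under 0.05. At 19 months the Y complex was split 4 to 4, with a median of -0.02.

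Nup98 (chr7:102119398-102210176, minus strand), a mobile nucleoporin that carries repeats of the channel type and binds Rae1, lies 2.66 Mb from Gdpd5 on the same chromosome. At 4 months it was measured at 1236, 1328 and 1357 normalized counts in WT and 1228, 1309 and 1145 in Gde2KO. At 19 months the values were 1515, 1415 and 1472 in WT and 1219.5, 1408 and 1485 in Gde2KO. The genotypes overlapped at both ages. The log2 fold change was -0.09 (SE 0.12, adjusted p = 0.719, limma) at 4 months and -0.10 (SE 0.08, adjusted p = 0.759, limma) at 19 months. The 95% intervals ran from -0.37 to 0.19 and from -0.30 to 0.09. At 4 months the difference was -0.19 after rescaling by median ratios, -0.21 on gene-level TPM and -0.23 after quantile normalization, and -0.04 without Gde2KO replicate 3, with an adjusted p of at least 0.478 under every alternative. The low 19-month value came from shallow library A, and without both shallow libraries the difference was 0.00 on the log2 scale.

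At 19 months the spread was smaller for most members, with a median SE of 0.08 against 0.14 at 4 months, and again no member was called. limma called 0 of 29, and 0.0969% of all 18583 genes. At an unadjusted p under 0.05 there was 1 member, and 6.91% of all genes. The median log2 fold change was -0.00 for members and -0.02 for all genes, with 14 members above 0 and 15 below, while 44.6% of all genes were above 0. The 95% intervals of 25 members lay inside the fold used for calls, and those of Nup37, Nup43, Nup62cl and Nup210l did not.

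**Figure D2:**
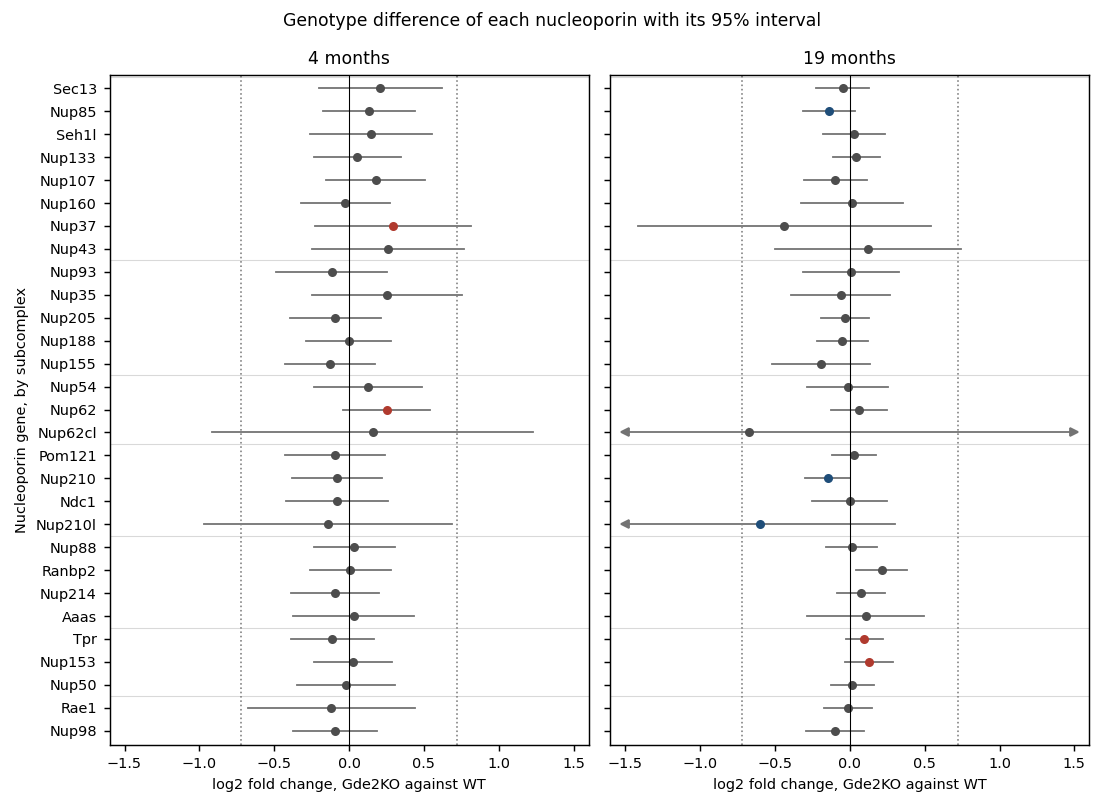
log2 fold change of Gde2KO against WT for each nucleoporin at 4 and 19 months, with the 95% interval from limma, dotted lines at the fold used for calls, and arrows where an interval leaves the panel. Red and blue points mark members whose WT and Gde2KO libraries do not overlap, and all intervals but that of Ranbp2 at 19 months include 0.

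The member of smallest p at 19 months was Ranbp2, the large filament protein of the cytoplasmic side that binds Ran (chr10:58446920-58494356). It was measured at 3844, 4239.7 and 4543 normalized counts in WT and 5127, 4535 and 4957 in Gde2KO. The highest WT library was just above the lowest Gde2KO library. The log2 fold change was 0.21 (SE 0.07, adjusted p = 0.668, limma), so it did not pass the correction. The lowest WT and the highest Gde2KO value came from the shallow libraries A. Without both of these libraries the log2 fold change was 0.11, with an adjusted p of 0.845 (at least 0.489 under every alternative). This gene was picked out here after its values were seen. At 4 months the same gene was measured at 5224 to 5975 in WT and 5499 to 5836 in Gde2KO.

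Groups did not overlap at 19 months for 2 members higher in Gde2KO, against 5.85% of all genes, and for 3 lower, against 8.32%. On gene-level TPM there were 0 higher and 6 lower. Without both shallow libraries there were 4 higher and 7 lower, but smaller groups separate more easily. No share over all genes is given for these 2 settings, so their counts are not comparable with those shares. The 2 members higher on normalized counts in all libraries both belong to the nuclear basket, the assembly on the nuclear face where mRNPs dock. Nup153 was measured at 1565, 1573 and 1699 normalized counts in WT and 1700.1, 1704 and 1879.7 in Gde2KO. The lowest Gde2KO library, shallow library A, was above the highest WT library by less than the value of 1 read there (8.29). The log2 fold change was 0.13 (SE 0.07, adjusted p = 0.734, limma). Tpr, the coiled-coil backbone of the basket (chr1:150392838-150449935), was measured at 3156, 3343 and 3476 in WT and 3546, 3523 and 3585 in Gde2KO, a log2 fold change of 0.10 (SE 0.05, adjusted p = 0.734). On gene-level TPM the sign of the Tpr difference turned, to -0.18. Markers of several cell types and regions also differed without overlap at this age. The summed level of 6 neuronal markers was 185476 to 196379 normalized counts in Gde2KO and 200176 to 207091 in WT, that of 5 astrocyte markers 24261 to 32693 and 22277 to 24013, and that of 7 hippocampal markers 8706 to 9825 and 7067 to 7455. The 4 deep-layer neuron markers went the other way from the neuronal ones, at 5410 to 6006 in Gde2KO and 5037 to 5106 in WT. The part of these markers in the nucleoporin values was not tested.

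The lower ones were Nup210, Nup85 and Nup210l. Nup210, a transmembrane protein with a large part between the nuclear membranes (chr6:91013068-91116829), was measured at 1109.9, 1069 and 1131 normalized counts in WT and 979, 1005 and 1001 in Gde2KO. Its log2 fold change was -0.15 (SE 0.07, adjusted p = 0.711, limma), and -0.44 on gene-level TPM. Nup85 of the Y complex was measured at 946, 883 and 882 in WT and 829, 780.2 and 853 in Gde2KO, a log2 fold change of -0.14 (SE 0.08, adjusted p = 0.734). Nup210l was near the limit of detection, at 28.0, 26.2 and 22.3 in WT and 16.6, 14.0 and 19.5 in Gde2KO, where the values of the shallow libraries rest on a few reads each. The resulting log2 fold change was -0.60 (SE 0.40, adjusted p = 0.736). On normalized counts the gaps for Nup210 and Nup85 were small beside the fold used for calls.

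The genotype difference was then compared between the ages in 1 fit of all 12 libraries. limma called 0 of 29 members for the interaction, and 0.048% of all 18731 genes, at the adjusted p alone. At an unadjusted p under 0.05 there were 0 members, and 12.9% of all genes. The smallest p-values belonged to Nup85, Tpr and Nup107. The difference at 19 months minus that at 4 months was -0.27 for Nup85 (SE 0.14, adjusted p = 0.414, limma), 0.21 for Tpr (SE 0.12, adjusted p = 0.438) and -0.28 for Nup107, another Y complex subunit (SE 0.16, adjusted p = 0.445). Of the members, 12 were above 0, against 34.8% of all genes. The median over the members was -0.02 and that over all genes -0.15. After rescaling by median ratios the medians were 0.10 and -0.03. The sign of the members' median thus depended on the scaling. It lay above the median of all genes under both scalings, a difference for which no test was run.

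Several members differed between the ages by the adjusted p, although by less than the fold used for calls in all but 1 case. The ages come from different libraries, so age and library preparation cannot be told apart. In WT, 0 of 29 members were called for age, and 13.7% of all genes. At the adjusted p alone 4 members passed, and 28.2% of all genes: Nup210 and Nup188 were higher at 19 months, and Ranbp2 and Tpr were lower. Nup188 is a large inner ring protein. In Gde2KO, 1 of 29 was called, and 11.9% of all genes, while 7 passed the adjusted p alone, and 32.3% of all genes. Nup214, Nup210 and Pom121 were the higher ones, and Nup35, Sec13, Nup107 and Nup37 the lower ones. Only Nup210 passed the adjusted p in both genotypes.

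Ranbp2 in WT was measured at 5224, 5975 and 5603 normalized counts at 4 months and 3844, 4239.7 and 4543 at 19 months. Every older library was below every younger one. The log2 fold change was -0.41 (SE 0.09, adjusted p = 0.0110, limma). In Gde2KO the values were 5499, 5836 and 5555 at 4 months and 5127, 4535 and 4957 at 19 months, a log2 fold change of -0.21 (SE 0.09, adjusted p = 0.114). The groups did not overlap there either, and the interaction of 0.20 did not pass (adjusted p = 0.473).

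Nup210 ran the other way. In WT it was measured at 826, 848 and 867 normalized counts at 4 months and 1109.9, 1069 and 1131 at 19 months, a log2 fold change of 0.38 (SE 0.09, adjusted p = 0.0177, limma). In Gde2KO the values were 737, 898 and 779 and then 979, 1005 and 1001, a log2 fold change of 0.31 (SE 0.09, adjusted p = 0.0364). The ages were separated in both genotypes.

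Nup214, which docks mRNA export factors on the cytoplasmic side (chr2:31974436-32053975), was measured in Gde2KO at 1169, 1211 and 1011 normalized counts at 4 months and 1542, 1496 and 1356 at 19 months. That was a log2 fold change of 0.38 (SE 0.10, adjusted p = 0.0209, limma), and that in WT was 0.21 (SE 0.10, adjusted p = 0.146). Pom121, a transmembrane protein that helps to place new pores, was measured in Gde2KO at 2443, 2024 and 1796 and then at 2474, 2823 and 2655. The lowest older library was only just above the highest younger one. The log2 fold change was 0.35 (SE 0.11, adjusted p = 0.0386, limma), and 0.23 in WT (adjusted p = 0.149). Nup188 was 0.25 higher on the log2 scale in WT (SE 0.09, adjusted p = 0.0682) and 0.20 higher in Gde2KO (SE 0.09, adjusted p = 0.118).

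Tpr in WT was measured at 4055, 4221 and 3654 normalized counts at 4 months and 3156, 3343 and 3476 at 19 months, a log2 fold change of -0.26 (SE 0.08, adjusted p = 0.0513, limma). On gene-level TPM the same difference was 0.19. The sum of TPM and the sum of counts part because Tpr has 2 transcripts of 7430 and 7480 bases and 12 shorter ones of 229 to 3200 bases, and short transcripts weigh more in TPM. This split was looked at after the values were seen. The pair of long transcripts had 27.8, 29.1 and 25.3 TPM in WT at 4 months and 19.4, 19.8 and 21.0 TPM at 19 months. The short ones together had 15.3, 11.8 and 13.8 TPM at 4 months and 27.5, 27.4 and 25.2 TPM at 19 months. Long transcripts were thus lower and short ones higher in every older WT library. In Gde2KO the long ones had 24.5, 25.7 and 19.8 TPM at 4 months and 23.7, 22.2 and 22.3 TPM at 19 months, with overlap. The short ones there had 19.4, 9.87 and 28.2 TPM at 4 months, a range that takes in their values at 19 months. Of the 14 Tpr transcripts, 9 are annotated as retained introns. At 19 months the long ones were higher in every Gde2KO library than in every WT library, and the short ones, at 15.03, 20.2 and 20.3 TPM in Gde2KO, were lower. The test of transcript usage did not call Tpr at that age (adjusted p = 0.999, diffSplice in limma).

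**Figure D3:**
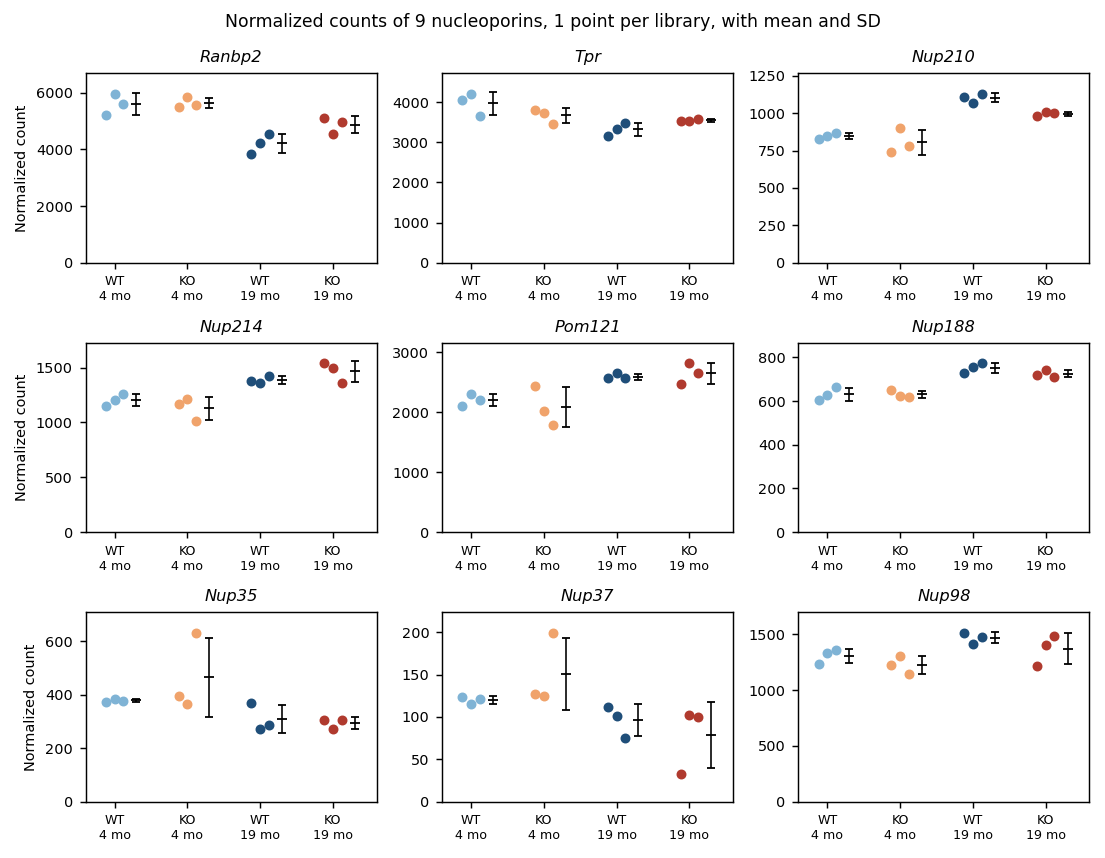
Normalized counts of 9 nucleoporins in each library, with the mean and SD of each group beside the points. Ranbp2 and Tpr are lower and Nup210 and Nup188 higher in every WT library at 19 months than at 4 months, and the 4-month Gde2KO library far above the others for Nup35 and Nup37 is replicate 3.

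Nup37 fell by 1.07 on the log2 scale with age in Gde2KO (SE 0.38, adjusted p = 0.0606, limma). It was measured there at 127, 125 and 199 normalized counts at 4 months and 33.2, 103 and 99.8 at 19 months. The call rests on the highest and the lowest of these libraries. The low value is about 4 reads in the shallow library A, and without that library the log2 fold change was -0.54 (adjusted p = 0.140). Without Gde2KO replicate 3 at 4 months it was -0.85 (adjusted p = 0.201). In WT the values were 124, 115 and 121 and then 112, 102 and 75.0, a log2 fold change of -0.34 (adjusted p = 0.557).

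Nup35, Sec13 and Nup107 were also lower with age in Gde2KO by the adjusted p alone, and each difference was smaller without replicate 3 at 4 months. Nup35 stood at 396.417, 364 and 632 normalized counts and then at 307, 269.7 and 305, a log2 fold change of -0.62 (SE 0.19, adjusted p = 0.0408, limma) that was -0.37 without that replicate. Sec13 stood at 1191, 1116 and 1682 and then at 921, 1022 and 984, a log2 fold change of -0.42 (SE 0.14, adjusted p = 0.0495) that was -0.24 without it. Nup107 differed by -0.32 (SE 0.11, adjusted p = 0.0605), and by -0.28 without it. Without that replicate 0 members were lower at the adjusted p, and Nup214 and Nup210 remained higher.

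The split between higher and lower members with age in Gde2KO depended on the scaling. With the deposited scaling all genes had a median of -0.21, and 4 members were higher and 6 lower at an unadjusted p under 0.05, against 8.78% and 28.8% of all genes. After rescaling by median ratios the median of all genes was -0.04, and 9 members were higher and 3 lower. Under that scaling 6713 of all 18731 genes passed in either direction. In WT the counts were 2 and 2, against 15.7% and 18.8% of all genes. After rescaling they were 5 and 2, and 6832 of all 18731 genes passed in either direction. Ranbp2 below and Nup210 and Nup188 above 0 passed the adjusted p in WT under the deposited scaling, median ratios and quantile normalization. For Nup210 the log2 fold change in WT on median-ratio scaling was 0.42 (adjusted p = 0.0191, limma), and for Ranbp2 -0.37 (adjusted p = 0.0231). Of these genes, Ranbp2 alone passed on gene-level TPM as well.

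In WT 12 of 29 members were above 0 with age, against 43.7% of all genes, and in Gde2KO 11 of 29, against 32.8%. Set side by side, 9 members were above 0 with age in both genotypes, 15 were below 0 in both, and 5 differed in sign, namely Nup62, Nup85, Nup153, Nup210l and Aaas. The age contrasts share no library, but age and library preparation cannot be told apart in either. Ages did not overlap in either genotype for Nup210, Nup188, Nup214 and Pom121, which were higher, and for Ranbp2, Nup35 and Nup37, which were lower. No share over all genes is given for agreement between the genotypes, in sign or in separation. Such agreement therefore cannot be read as particular to nucleoporins. In WT the ages did not overlap for 7 members higher and 7 lower, against 19.3% and 26.7% of all genes. In Gde2KO they did not overlap for 6 higher and 6 lower, against 11.3% and 29.9%. The transmembrane members were divided in both genotypes, with Pom121 and Nup210 above 0 and Ndc1 below, and so was the cytoplasmic side, with Nup214 above 0 and Ranbp2 below. In the Y complex 6 of 8 were below 0 in WT and 7 of 8 in Gde2KO, a count that also takes in the shift of all genes.

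**Figure D4:**
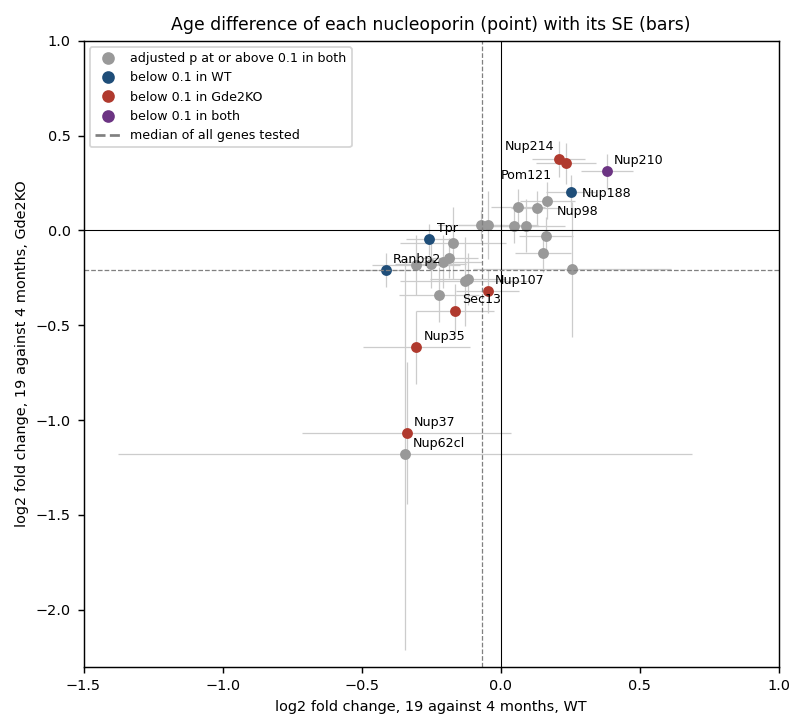
log2 fold change at 19 against 4 months in WT (horizontal) and Gde2KO (vertical) for each nucleoporin, with standard errors as bars and the medians of all genes as dashed lines. Nup210 is above 0 on both axes and past the adjusted p in both, while Nup37 and Nup62cl are the lowest in Gde2KO and have the longest bars.

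Nup98 also has a choice of transcripts, shown here because its usage had the smallest p of any member at 4 months. Of its 8 transcripts, ENSMUST00000210682.1 is the full-length one, with 33 exons, and encodes the precursor that is cut into the Nup98 and Nup96 proteins, Nup96 being a Y complex subunit. The other protein-coding transcripts above 0 have coding lengths of 2901 to 3561 bases against its 5448. They differ further at exon 10, which ends 51 bases later in one form than in the other. In the long form exon 10 is chr7:102180377-102180515 and in the short form chr7:102180428-102180515, on the minus strand of GRCm38, and both are joined to an exon at chr7:102176313-102176405. The joins are printed from GENCODE vM21, with the last 15 bases of exon 10 in capitals and the first 15 of the next exon in lower case, to show the sequence by which reads can tell the forms apart.
Nup98 long exon 10 join: ACACTTCCAATTTTGggtttggcacaaata
Nup98 short exon 10 join: GTGGCGGGCTCTTCGggtttggcacaaata

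At 4 months the full-length transcript held 49.0%, 51.0% and 56.4% of Nup98 TPM in WT and 60.9%, 56.4% and 60.8% in Gde2KO. No knockout library was below the highest WT library, although WT replicate 3 and Gde2KO replicate 2 were the same to 3 digits. The means were 52.1% and 59.4%, a difference of 7.28 percentage points (exact permutation p = 0.1, two-sided, the smallest that 3 against 3 allows). The level of this transcript itself overlapped between the genotypes, at 6.52, 7.21 and 7.93 TPM in WT and 7.13, 7.54 and 6.47 TPM in Gde2KO. The higher share is therefore not a higher level of the full-length transcript. In diffSplice, limma's test of whether the transcripts of a gene change unequally, the adjusted p was 0.0902, with 1.04e-09 to 0.668 over the alternatives, and it was not called because the share moved by less than 10 percentage points. At 19 months the shares were 67.6%, 66.7% and 66.4% in WT and 54.5%, 65.2% and 66.8% in Gde2KO, with the low value again in shallow library A, and the groups overlapped. The mean difference was -4.77 percentage points (exact permutation p = 0.3, two-sided), opposite in sign to that at 4 months. In diffSplice the adjusted p of Nup98 at 19 months was 0.979. It was 2.76e-08 without both shallow libraries, where no share moved by 10 percentage points, so this test was unstable for Nup98.

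The transcripts with the short exon 10 held 20.9%, 21.0% and 15.9% of Nup98 TPM in WT and 16.3%, 15.6% and 9.83% in Gde2KO at 4 months. The groups overlapped (exact permutation p = 0.2, two-sided). At 19 months they held 17.9%, 14.3% and 13.0% in WT and 27.3%, 16.9% and 11.7% in Gde2KO (exact permutation p = 0.7, two-sided). The grouping by exon 10 was made after the values were seen. ENSMUST00000211022.1, a short-exon transcript, was listed at 0 in 2 of 3 Gde2KO libraries at each age and above 0 in all 6 WT libraries. ENSMUST00000211235.1, the other, was above 0 in all 12 libraries. Nup98 transcripts annotated as retained introns held 14.1%, 13.5% and 13.3% in WT at 4 months and 9.68%, 12.3% and 10.3% in Gde2KO. Their share was thus lower in every knockout library at that age, and at 19 months the genotypes overlapped. These were looked at after the values were seen.

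**Figure D5:**
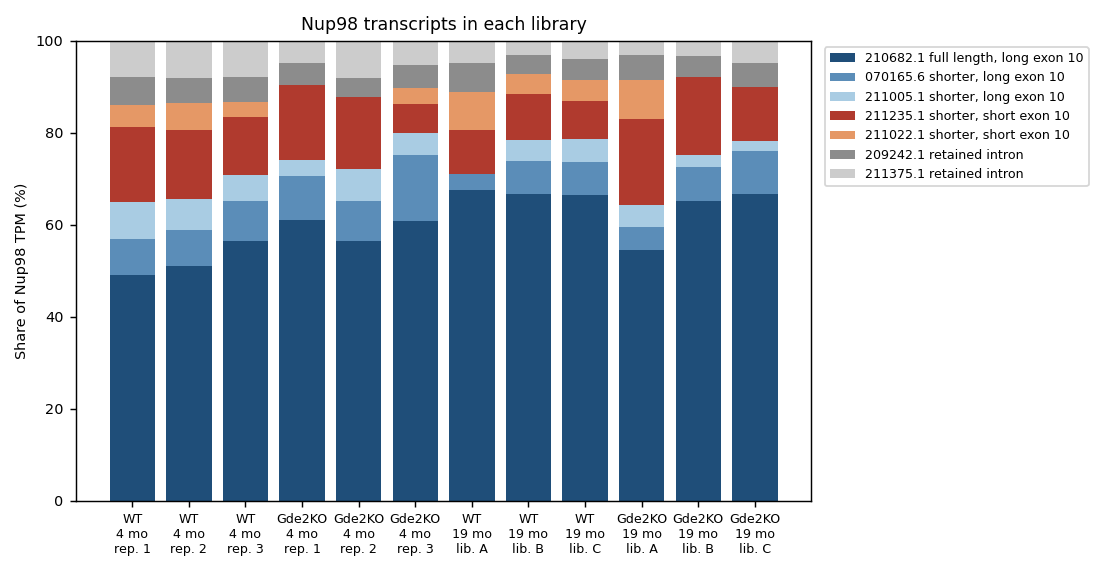
Share of Nup98 TPM held by each transcript in the 12 libraries, as bars that add to 100%. The full-length transcript is the largest in every library, from 49.0% in WT replicate 1 at 4 months to 67.6% in WT library A at 19 months.

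Over all members, transcript usage was called for 0 of 26 tested at 4 months, and 0.997% of all genes, and for 0 of 27 at 19 months, and 0.171% of all genes. At an unadjusted p under 0.05 there were 6 members at 4 months, against 12.6% of all genes, and 1 at 19 months, against 5.10%. After Nup98, Nup210l had the smallest p at 4 months (adjusted p = 0.163, diffSplice in limma), but its few reads went wholly to 1 of its 2 transcripts in 4 of the 6 libraries. Nup205, a large inner ring protein, had the smallest at 19 months (adjusted p = 0.453). Its transcript ENSMUST00000201609.3 held 27.6%, 24.8% and 25.4% of the gene's TPM in WT and 9.81%, 16.5% and 17.5% in Gde2KO, lower in every knockout library. At 4 months that transcript held 22.1%, 19.5% and 27.7% in WT and 30.2%, 17.9% and 27.9% in Gde2KO, with overlap.

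The 28 genes of a list of pore-associated and nuclear envelope proteins outside the rule were read from the same fits. None was called for genotype at either age. At 4 months 2 reached an unadjusted p under 0.05, both higher in Gde2KO, against 10.6% of all genes, and at 19 months 0 did, against 6.91%. Lmna, which encodes the A-type lamins beneath the envelope, was measured at 1149, 1155 and 1327 normalized counts in WT and 1564, 1372 and 2251 in Gde2KO at 4 months. Its log2 fold change was 0.48 (SE 0.19, adjusted p = 0.463, limma), and at 19 months it was -0.05 (SE 0.07). Sun1, an inner membrane protein that links lamins to the cytoskeleton, had a log2 fold change of 0.42 at 4 months (adjusted p = 0.463) and -0.09 at 19 months (adjusted p = 0.776). Ran, the GTPase that gives transport its direction, was measured at 6126, 5824 and 5371 in WT and 6536, 5294 and 8456 in Gde2KO at 4 months, a log2 fold change of 0.20 (SE 0.18, adjusted p = 0.601), and at 19 months it was -0.04 (SE 0.06, adjusted p = 0.863). The high 4-month values of Lmna and Ran were those of Gde2KO replicate 3, and without it the log2 fold changes were 0.28 for Lmna and 0.03 for Ran.

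With age in WT, 2 of the 28 genes of the list were called, both higher, against 13.7% of all genes. Lmna reached 1933, 2038 and 2223 normalized counts at 19 months, a log2 fold change of 0.77 (SE 0.15, adjusted p = 0.00709, limma). Sun2, the partner of Sun1, was measured at 849, 1011 and 2444 at 4 months and 2318, 2531 and 2301 at 19 months, a log2 fold change of 0.90 (SE 0.29, adjusted p = 0.0482). The low values of Sun2 were those of WT replicates 1 and 2, the libraries with high hippocampal and low striatal markers, and the part of tissue make-up in them was not tested. In Gde2KO 0 genes of the list were called for age, against 11.9% of all genes. Nxf1, the main mRNA export receptor, was higher with age by the adjusted p alone in both genotypes, with log2 fold changes of 0.45 in WT (SE 0.09, adjusted p = 0.00912, limma) and 0.50 in Gde2KO (SE 0.09, adjusted p = 0.00700), and the ages did not overlap in either.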

How the data were processed

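The authors quantified reads with Kallisto on the GRCm38 transcriptome and processed them with Sleuth (versions not given in the sources used here). They deposited 2 tables of signal values per transcript, estimated counts and TPM, each divided by a library size factor. Members and lists were chosen with earlier results of these data known. Counts were summed per gene. Genes with 5 normalized counts or more in at least 47% of libraries were fitted as log2(value + 0.5) with limma 3.58.1 in R 4.3.3, so folds of low genes are understated. Genotype was fitted per age, and interaction and age in all 12 libraries, without covariates. Transcript usage used diffSplice on transcripts with a mean of 5 or more. The genotype, interaction and transcript usage steps were run on simulated data with planted changes larger than the fold used for calls. No age contrast was simulated, and usage was called there on the adjusted p alone. Genes named were Gdpd5, Nup98, members called, the 5 of smallest p per comparison (non-overlapping ones for genotype), 3 for the interaction, 2 for transcript usage, and the 3 highest and lowest by TPM; others were named within their subcomplex or list. The 19-month libraries carry no replicate number and are called A, B and C in column order. Transcripts without a gene (1673) were left out. Positions come from GENCODE vM21. RefSeq synonyms gave the older symbols. Columns left without a sample numbered 0.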

Additional observations from a re-analysis of the deposited data

How the results depend on the processing

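No nucleoporin was called for genotype at either age, for the interaction or for age in WT under any alternative run: other pseudocounts, filters, scalings, gene-level TPM, other fits and each library left out. The single call for age in Gde2KO, Nup37, became 0 with quantile normalization and 0 without both libraries of low depth, and ranged from 0 to 2 when 1 library was left out. Its log2 fold change was then -1.34 to -0.54, and Nup35 was the gene added, without Gde2KO replicate 2 at 4 months (-0.77). Transcript usage at 4 months gave 1 member with the Simes adjustment (Nup214), against 262 of all 12235 genes. It gave 1 at the adjusted p alone (Nup98), against 324 genes, and 0 to 2 with 1 library left out, against 83 to 659. At 19 months it gave 1 with the Simes adjustment (Nup205), against 47 of all 12253 genes. Without both libraries of low depth it gave 2 (Nup210l and Nup160), against 122 of 12140 genes. Nup98 had the smallest p of the members there (adjusted p = 2.76e-08, diffSplice), but its largest share difference was 5.17 percentage points, too small for a call. Over all settings that left libraries out, transcript usage at 19 months gave 0 to 2 members, against 22 to 122 genes. The median log2 fold change of the members at 4 months moved to -0.093 with median-ratio scaling and -0.13 with quantile normalization, and with 1 library left out it was -0.02 to 0.03, and 0.08 without WT replicates 1 and 2. At 19 months it was -0.054 to 0.020 with 1 library left out. Tpr turned sign on gene-level TPM, to -0.18 at 19 months, -0.22 for the interaction and 0.19 for age in WT, and Nup98 at 19 months was 0.0028 without both libraries of low depth. Gene-level TPM moved other named differences by over 1.5 times: at 19 months Nup153 to 0.05, Nup85 to -0.23 and Nup210l to -0.17, and with age Nup188 in WT to 0.07, Nup214 in WT to 0.44 and in Gde2KO to 0.11, and Nup35 in Gde2KO to -0.22. Median-ratio scaling moved the interactions of Nup85 and Nup107 to -0.15 and Tpr to 0.33, and for age in Gde2KO Nup210 to 0.48 and Sec13 to -0.26. Calls over all genes moved most without WT replicate 3 at 4 months, for the interaction from 9 to 2029. At 19 months they ran from 7 to 45, for age in WT from 1525 to 3096 and in Gde2KO from 1096 to 2851. The Gdpd5 call at 19 months was lost in 1 fit of all groups (adjusted p = 0.194), on gene-level TPM (0.513), without an intensity trend (0.288) and without WT library A (0.118), with the log2 fold change between -1.22 and -1.04 when libraries were left out. At 4 months WT and Gde2KO share replicate numbers. Same-number correlations of deviations were 0.06, 0.01 and -0.05, and those between unlike numbers ran from -0.14 to 0.11. These values give no sign of pairing by number, and they do not settle whether the libraries were paired. A replicate block gave 0 members called at 4 months, 21 genes against 24, and a median of 0.01. For transcript usage it gave 1 member (Nup214), against 97 of all 12235 genes. No paired analysis was possible at 19 months because the columns carry no numbers. Depth limits Nup62cl, Nup210l, Nup43 and Nup37, which rest on few reads in the shallow libraries. The causes were not tested.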
